A study of Mus musculus with 20 samples.

Results

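The second day of continuous tamoxifen was followed in ES-ZERT cells, a mouse embryonic stem (ES) cell clone. The clone carries a gene for a Zscan4 fusion protein built to be activated by tamoxifen. The change was taken between 2 arrays of cells kept in tamoxifen for 2 days and 2 arrays of cells 1 day into treatment, 4 of the 20 arrays of the series. Zscan4 proteins carry a SCAN domain and zinc fingers, are made at the onset of zygotic transcription in the mouse embryo, and appear in ES cells in short bursts in few cells at a time. Fusion to ERT2, a mutated ligand-binding domain of the oestrogen receptor, keeps a protein idle in the cytoplasm, and tamoxifen releases it to the nucleus. The fusion makes the timing of Zscan4 activity a choice of the experimenter, and the comparison asks what changes when that activity is held for another day.

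All groups were the same clone, number 18, made from V6.5 ES cells (C57BL/6 x 129/Sv F1) with pCAG-Zscan4-ERT2, whose CAG promoter is active in most cell types, and with a neomycin-resistance vector. Cells grew on gelatin in medium with LIF, the cytokine that maintains mouse ES cells. The groups compared were day 1 in 200 nM tamoxifen, day 2 in 200 nM tamoxifen, and untreated cells of day 1 and day 2, with day 0 cells and cells withdrawn from tamoxifen after day 1 as further points. Each group had 2 arrays. Nothing in the labels says that the 2 were grown separately, so the p-values rest on a spread between arrays that may be technical. Tamoxifen-treated cells without the transgene were not analysed here, so an effect of the drug itself and one of the fusion protein cannot be told apart.

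Each array paired Cy3-labelled sample RNA with a Cy5-labelled reference, a pool of 11 mouse cell lines mixed with ES cell RNA. Values below are log2 ratios of sample over reference, called levels, and changes are differences of levels between group means. Of 42006 probes, 29414 were well above background in at least 1 group and were tested. A probe is called when its Benjamini-Hochberg adjusted p from limma, fitted to all 20 arrays, is under 0.05. Between 26225 and 27442 probes were well above background on the 4 tamoxifen arrays, and replicate arrays of the series correlated at 0.985 to 0.995 across probes. The pair with the widest replicate difference was untreated day 1 (SD 0.180, against 0.0909 to 0.125 in the other groups). Day 1 and day 2 lay on different slides in both treated and untreated cells, so slide and day cannot be told apart. Treated and untreated cells of the same day also lay on different slides. In every same-day difference below, slide and treatment therefore cannot be told apart. The comparisons of continued with withdrawn cells on day 2, and of untreated day 1 with day 0, each stayed within a slide.

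The arrays identify probes by code and sequence, with no gene name, so probes stand here for the transcripts they hybridise to. Markers of ES cells and feeder fibroblasts, and the transgene itself, were therefore not checked. The probes on which the results turn are 60 bases long and are printed 5′ to 3′. The 5 largest rises on the second tamoxifen day, among called probes whose day 2 arrays did not overlap the day 1 arrays, are shown first. Capitals mark AATAAA, the common polyadenylation signal when it lies near the end of a transcript.
Z00020267-1: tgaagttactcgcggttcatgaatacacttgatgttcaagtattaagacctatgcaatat
Z00029465-1: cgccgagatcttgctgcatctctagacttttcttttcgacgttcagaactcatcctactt
Z00002099-1: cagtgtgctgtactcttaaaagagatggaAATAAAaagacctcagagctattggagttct
Z00034825-1: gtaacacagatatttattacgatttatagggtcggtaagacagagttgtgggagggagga
Z00021680-1: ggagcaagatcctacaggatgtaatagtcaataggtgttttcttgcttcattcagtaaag

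The 5 largest falls by the same rule follow. In Z00074574-1 and Z00002490-1 the capitals mark a stretch of 45 bases that both probes hold, so these are overlapping readings of the same sequence.
Z00003765-1: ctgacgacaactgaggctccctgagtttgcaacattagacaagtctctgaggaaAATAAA
Z00010943-1: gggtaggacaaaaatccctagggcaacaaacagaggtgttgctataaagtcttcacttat
Z00074574-1: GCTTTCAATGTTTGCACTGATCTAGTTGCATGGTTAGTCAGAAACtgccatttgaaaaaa
Z00002490-1: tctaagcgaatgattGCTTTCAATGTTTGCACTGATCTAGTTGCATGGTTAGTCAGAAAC
Z00049363-1: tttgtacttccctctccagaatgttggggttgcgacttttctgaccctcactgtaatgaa

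The probes whose second-day change differed most between treated and untreated cells, 3 in each direction, include Z00074574-1 above. The others are shown because their changes with and without tamoxifen lay furthest apart, with AATAAA again in capitals. Slides differed between those changes too.
Z00015795-1: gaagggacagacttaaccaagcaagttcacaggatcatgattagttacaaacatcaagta
Z00033292-1: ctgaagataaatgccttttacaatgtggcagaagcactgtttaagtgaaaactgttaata
Z00035949-1: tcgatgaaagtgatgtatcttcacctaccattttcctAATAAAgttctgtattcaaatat
Z00027744-1: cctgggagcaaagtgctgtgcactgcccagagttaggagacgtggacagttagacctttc
Z00026394-1: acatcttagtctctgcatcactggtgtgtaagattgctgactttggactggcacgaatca

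Between day 1 and day 2 in tamoxifen, 6549 probes rose (22.3% of those tested) and 5218 fell (17.7%), 40% in all by limma at adjusted p under 0.05. Most of these changes were small. The median of the called rises was 0.35 and that of the called falls -0.31 on the log2 scale, and 248 rises and 111 falls reached 2-fold. Over all tested probes, the central 95% of changes ran from -0.56 to 0.73. The share called grew with brightness, from 13.4% in the dimmest of 5 equal classes of probes to 54.8% in the next to brightest and 46.4% in the brightest. Leaving out any 1 of the 4 tamoxifen arrays left 8546 to 9653 probes called, and leaving out the first untreated day 1 array, which enters only through the shared estimate of spread, gave 12843. With the local backgrounds of that array taken as deposited, 7227 were called. When the sample channel was used without the reference, rises no longer outnumbered falls (5159 against 5570).

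The largest rise belonged to Z00020267-1. Its level was -2.48 and -2.56 on the 2 day 1 tamoxifen arrays and 0.52 and 0.46 on the 2 day 2 arrays, a rise of 8.04-fold (log2 3.01, SE 0.068, limma adjusted p = 1.9e-14). Both day 2 arrays thus lay far above both day 1 arrays. Untreated cells made most of the same climb, from -2.30 and -2.28 on day 1 to -0.10 and 0.10 on day 2 (log2 2.29). The rise in tamoxifen was larger than the untreated rise by 0.72 (SE 0.097, limma adjusted p = 0.00048).

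Z00029465-1 rose from -0.60 and -0.90 to 2.11 and 2.05 in tamoxifen, 7.08-fold (log2 2.82, SE 0.092, limma adjusted p = 1.3e-12). Untreated levels went from -0.32 and -0.09 to 1.84 and 1.97. The treated arrays therefore started lower than the untreated arrays on day 1 (difference -0.54, limma adjusted p = 0.00038), with slide differing as well. On day 2 the difference between treated and untreated arrays did not pass the test (0.17, limma adjusted p = 0.21). The next, Z00002099-1, went from -2.51 and -2.78 to -0.10 and -0.23 with tamoxifen and from -2.46 and -2.18 to -0.53 and -0.35 without. Its changes were 2.48 and 1.88. Z00021680-1 went from -1.77 and -1.98 to 0.52 and 0.38 with tamoxifen and from -1.78 and -1.62 to -0.12 and 0.14 without, changes of 2.32 and 1.71. In both probes the treated arrays of day 2 lay above the untreated arrays of day 2.

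Z00034825-1 rose from -3.54 and -3.59 to -1.14 and -1.25 in tamoxifen, 5.17-fold (log2 2.37, SE 0.070, limma adjusted p = 7.2e-13). Without tamoxifen it went from -3.06 and -2.95 to -1.48 and -1.50. Tamoxifen cells were thus below untreated cells on day 1 by 0.56 (log2 -0.56) and above them on day 2 by 0.29, and both differences passed the test. For all 5 risers the untreated change was also called. All 5 had also been lower on untreated day 1 than on day 0 (limma adjusted p at most 7.6e-06), so their second-day rise followed a drop on the first day after plating.

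**Figure D1:**
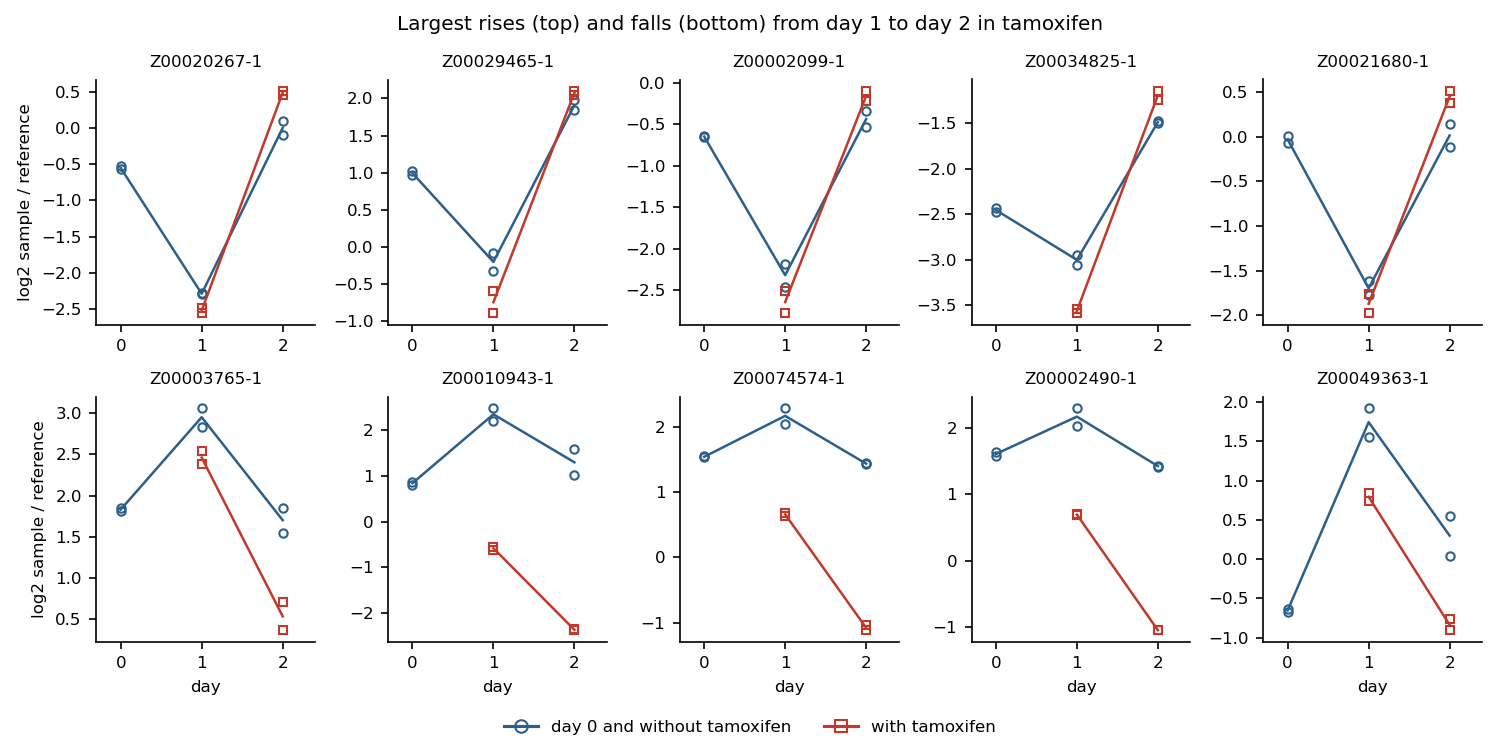
Level (log2 sample over reference) against day for the 5 largest rises (top row) and 5 largest falls (bottom row) of the second tamoxifen day; symbols are single arrays, lines join group means, circles are day 0 and untreated cells and squares are tamoxifen. Each riser drops to day 1 and climbs to day 2 with or without tamoxifen, while all 5 falls in tamoxifen start from day 1 levels that already lie below the untreated ones.

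Among the falls, Z00003765-1 went from 2.54 and 2.38 to 0.37 and 0.71 in tamoxifen, 3.79-fold lower (log2 -1.92, SE 0.11, limma adjusted p = 8.6e-10). Untreated levels fell from 2.83 and 3.06 to 1.85 and 1.55 (log2 -1.25), and the fall was larger in tamoxifen by 0.68 (difference -0.68, adjusted p = 0.028). The other falls show different shares of the untreated change. Z00049363-1 fell by nearly as much without tamoxifen as with it: its changes were -1.63 and -1.45, and their difference of -0.19 did not pass the test (SE 0.18, adjusted p = 0.64). Its level was 0.85 and 0.74 on treated day 1, -0.91 and -0.76 on treated day 2, 1.56 and 1.93 on untreated day 1, and 0.55 and 0.05 on untreated day 2.

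Z00010943-1 had already dropped on the first tamoxifen day, to -0.62 and -0.55 against 2.20 and 2.48 in untreated cells. On the second day it fell further to -2.35 and -2.38, while untreated cells were at 1.57 and 1.01. The second-day fall was 3.43-fold (log2 -1.78, SE 0.14, limma adjusted p = 2.1e-08), and Agilent's processed signals gave a log2 fall of -3.06. Treated cells ended 12.6-fold below untreated cells on day 2. The second-day changes with and without tamoxifen differed by -0.73, which just missed the threshold (SE 0.19, adjusted p = 0.055).

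The overlapping probes Z00074574-1 and Z00002490-1 gave nearly the same readings. Z00074574-1 went from 0.68 and 0.64 to -1.04 and -1.12 in tamoxifen, and Z00002490-1 from 0.70 and 0.69 to -1.04 and -1.05. Without tamoxifen the first went from 2.05 and 2.30 to 1.44 on both arrays, and the other from 2.03 and 2.30 to 1.43 and 1.41. The treated arrays of either day lay below every untreated array of both days. The falls in tamoxifen were 3.34-fold and 3.33-fold (log2 -1.74 for both). They exceeded the untreated falls of -0.73 and -0.74 by about 1 log2 unit (differences -1.01 and -0.99, limma adjusted p = 1.9e-05 and 4.5e-05).

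Such overlaps gave an internal reading of how closely probes to shared sequence followed each other. Among tested probes, 773 pairs shared at least 30 bases, and their second-day changes in tamoxifen differed by a median of 0.04. In 340 pairs both members were called, and all 340 moved the same way. In 93 pairs only 1 member was called.

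Untreated cells also changed between day 1 and day 2, at 5898 probes upwards (20.1% of those tested) and 5003 downwards (17%), 37.1% in all by the same test. Rises no longer outnumbered falls with the local backgrounds as deposited (3807 against 3901), with the sample channel alone (4773 against 4861) or with the series matrix values (3799 against 4035). Of the probes that rose in tamoxifen, 4380 also rose without it, which is 66.9% of the tamoxifen risers and 74.3% of the untreated risers. Of those that fell, 3423 also fell without it, 65.6% and 68.4% of the respective falls. Opposite calls were few: 32 probes rose in tamoxifen and fell without, and 42 did the reverse. Across the 29414 probes the changes with and without tamoxifen correlated at r = 0.823, with 74.4% of the same sign. The comparisons share no array, but treated day 1 and untreated day 2 lay on the same slide, which enters the changes with opposite signs, and all arrays share the reference.

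Probes chosen for a large treated change had, by median, a smaller untreated one. Among the 248 probes that rose at least 2-fold in tamoxifen, the median change was 1.17 with tamoxifen and 0.92 without. Of these, 243 were also called higher without tamoxifen, 104 of them by at least 2-fold, and the remaining 5 were not called there. Among the 111 that fell at least 2-fold, the medians were -1.15 and -0.82, with 102 called lower without tamoxifen and 9 not called. These probes were chosen by the treated change, which raises it relative to the untreated one. Probes chosen by the untreated change, with calls of any size, showed the reverse or near equality. Untreated risers had medians of 0.33 without and 0.33 with tamoxifen, and untreated fallers -0.30 and -0.26. As these were not limited to 2-fold, the choices are not alike, and which change was larger at 2-fold was not settled.

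**Figure D2:**
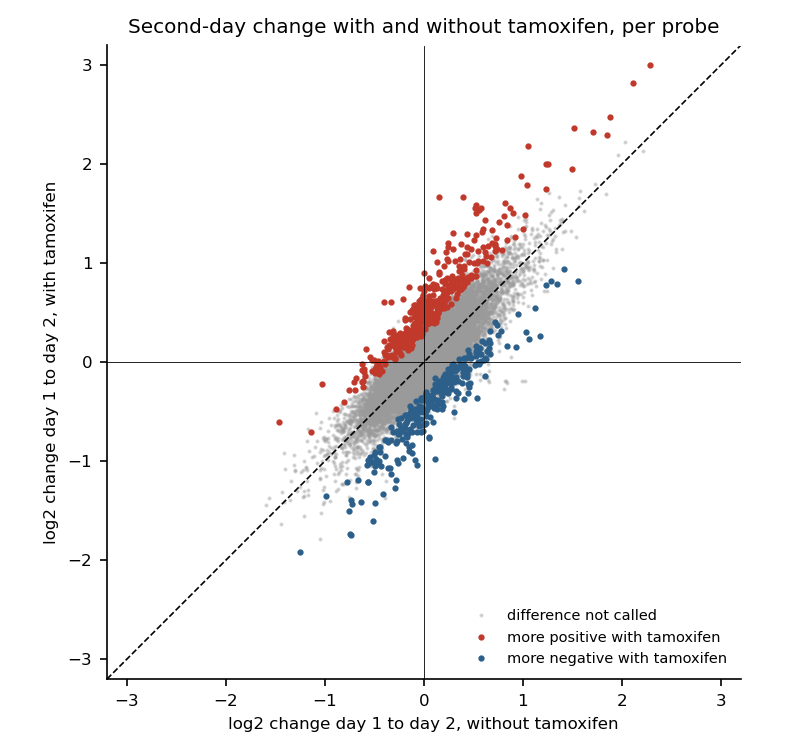
Change from day 1 to day 2 (log2) with tamoxifen on the vertical axis against that without tamoxifen on the horizontal axis, 1 point per tested probe, with a dashed line of equal change. The 401 red and 296 blue points are the probes whose change differed (limma adjusted p under 0.05), and most points lie along the diagonal (r = 0.823 across 29414 probes).

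The difference between the treated and untreated change was then tested probe by probe. It was called for 697 probes, 401 with the more positive change in tamoxifen (1.36% of those tested) and 296 with the more negative (1.01%), 2.37% in all. Only 8 and 3 of them reached 2-fold. The number depended on single arrays. Without the first untreated day 1 array it was 4137, and without the second untreated day 1 array 452. Leaving out 1 of the day 1 tamoxifen arrays gave 416 and 340, 1 of the day 2 tamoxifen arrays 333 and 351, and 1 of the untreated day 2 arrays 384 and 773. With only the 8 arrays of these groups in the fit, 158 were called.

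The 401 probes were not of a single kind. Among them, 164 rose in tamoxifen with no call without it, 146 rose in both and more in tamoxifen, 31 rose in tamoxifen and fell without, 51 fell only without tamoxifen by the calls, and 9 fell in both but less in tamoxifen. Among the 296, 108 fell in tamoxifen with no call without it, 65 fell in both, 39 fell in tamoxifen and rose without, 65 were called only as untreated rises, and 19 rose in both but less in tamoxifen. Of the 2137 probes called as rises in tamoxifen and not called without it, the difference itself was called for 164. The other lone calls were thus not shown to differ between treated and untreated cells.

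The levels of these classes, given as a description since the difference chose them, show where the arrays lay. The 401 probes had median levels relative to day 0 of -0.03 and -0.05 on the day 1 tamoxifen arrays and 0.51 and 0.49 on the day 2 tamoxifen arrays. On untreated arrays the medians were -0.22 and -0.12 on day 1 and -0.11 and -0.07 on day 2. The second-day step in tamoxifen thus carried these probes above day 0, where untreated cells did not go. Cells withdrawn after day 1 went there too, at 0.46 and 0.42 on day 2. The step was thus seen in both schedules. Withdrawn and continued cells of day 2 lay on the same slide, so slide cannot be told apart from this step. For the 296 probes the medians were -0.23 and -0.21, then -0.63 on both arrays, in tamoxifen, against 0.00 and -0.07, then 0.10 and 0.08, without it. Withdrawn cells of day 2 stood at -0.59 and -0.56. On arrays that did not choose them, those of day 4 in continued tamoxifen, the 401 probes stood at 1.05 and 1.02 and the 296 at -0.89 and -0.88. In withdrawn cells of day 4 they stood at 0.77 and 0.76 and at -0.54 and -0.56. Day 4 had no untreated arrays and differed from day 0 in slide and scan session too, so these cannot be told apart from time and treatment.

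**Figure D3:**
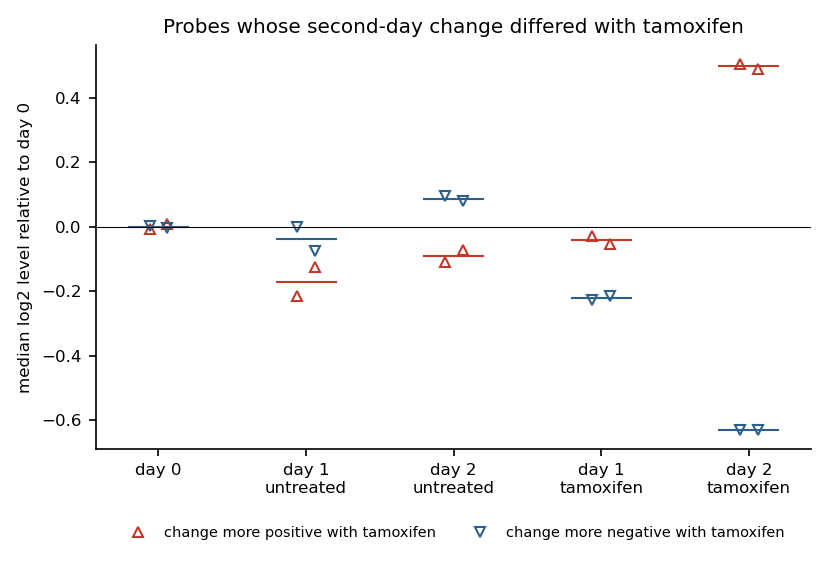
Median level relative to day 0 (log2) on each array of 5 groups, for the 401 probes with the more positive (upward triangles) and the 296 with the more negative (downward triangles) second-day change in tamoxifen; short lines are means of the 2 arrays. On day 2 in tamoxifen the classes stand at 0.51 and 0.49 and at -0.63, away from every other group shown. Withdrawn cells of day 2, not shown, were close to them, at 0.46 and 0.42 and at -0.59 and -0.56.

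Among single probes, the widest difference was that of Z00015795-1. Its level was -1.06 and -1.25 on day 1 and 0.50 and 0.51 on day 2 in tamoxifen, and -2.49, -2.12, -2.11 and -2.18 on the untreated arrays of the same days. It rose 3.17-fold in tamoxifen (log2 1.66, SE 0.094, limma adjusted p = 7.2e-10), while the untreated change of 0.16 did not pass the test (adjusted p = 0.21). The changes differed by 1.51 (SE 0.13, adjusted p = 1.2e-05). Treated cells stood 2.21-fold above untreated cells on day 1 and 6.29-fold above on day 2, in each case on another slide.

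Z00033292-1 followed a like course, from -1.87 and -2.05 to -0.30 and -0.28 in tamoxifen and from -3.16 and -2.75 to -2.61 and -2.51 without. The changes of 1.67 and 0.40 differed by 1.27 (SE 0.14, limma adjusted p = 7.7e-05). On day 2 treated cells were 4.81-fold above untreated cells. Z00035949-1 was at -5.55 and -5.59 on treated day 1 and at -3.35 and -3.41 on treated day 2. Untreated levels were -5.96 and -5.82 and then -4.85 and -4.83, so it rose in both, by 2.19 and 1.05, with a difference of 1.14 (SE 0.095, adjusted p = 9.7e-06). With the backgrounds of the first untreated day 1 array as deposited, the differences were 2.35 for Z00033292-1 and 2.54 for Z00035949-1, and the latter was no longer called (adjusted p = 0.089).

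In the other direction, Z00027744-1 went from 0.08 and 0.03 to -1.55 and -1.54 in tamoxifen and from 1.61 and 1.83 to 1.24 and 1.17 without. Its falls of -1.60 and -0.52 differed by -1.09 (SE 0.099, limma adjusted p = 1.5e-05), and treated cells ended 6.74-fold below untreated cells. Z00026394-1 fell in tamoxifen alone by the calls. It went from -0.12 and -0.22 to -1.16 and -1.13 with tamoxifen (log2 -0.97, SE 0.10, adjusted p = 8.7e-07), and its untreated levels of 0.52 and 0.14 on day 1 and 0.37 and 0.52 on day 2 overlapped. The changes differed by -1.09 (SE 0.15, adjusted p = 0.00048). In all 5 of these probes and in Z00074574-1, treated and untreated levels lay apart on day 1 and further apart on day 2, on different slides each day.

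**Figure D4:**
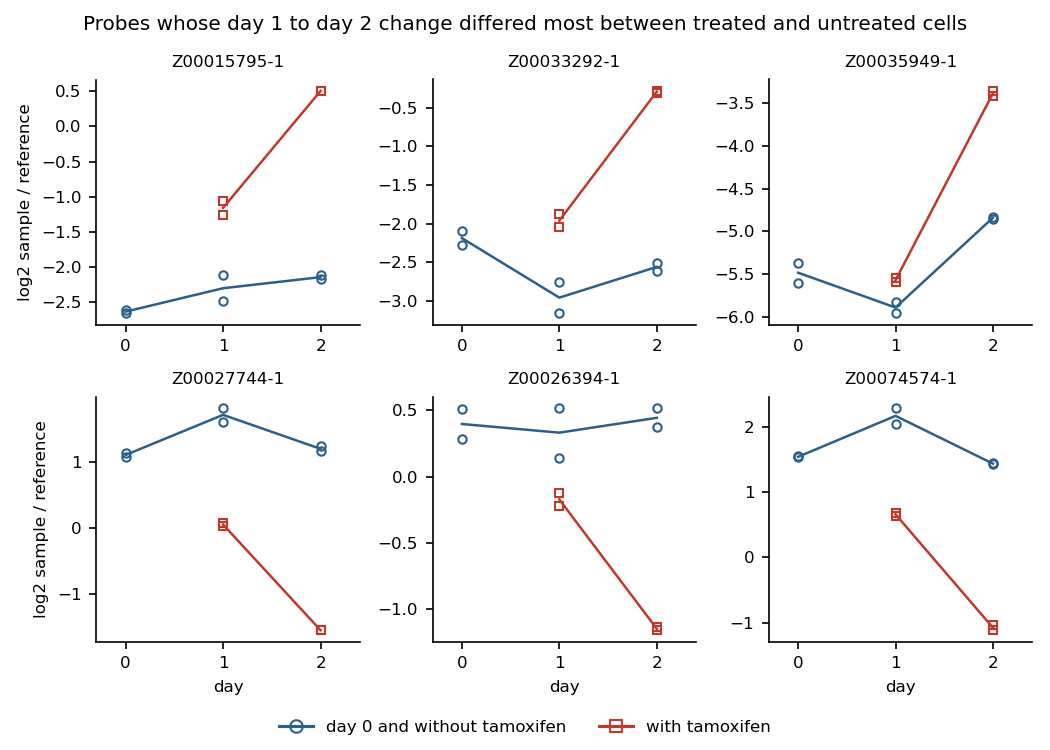
Level (log2 sample over reference) against day for the 6 probes whose second-day change differed most between treated cells (squares) and untreated cells (circles, with day 0); symbols are single arrays and lines join group means. In each panel the tamoxifen line runs away from the untreated line from day 1 to day 2, with differences between the changes of 1.51, 1.27, 1.14, -1.09, -1.09 and -1.01.

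Whether the second day needed tamoxifen in the medium was read from cells moved to plain medium after day 1. Continued and withdrawn cells of day 2 lay on the same slide, and limma called 0 of 29414 probes between them (0% at adjusted p under 0.05, with 821 at an unadjusted p under 0.05). The 821 are a smaller share than the limit of 0.05 alone would give, so the count by itself shows no difference. The test used the spread of all groups. Replicate differences were narrower in these groups (SD 0.0929 and 0.101) than in untreated day 1 (0.180). The central 95% of differences ran from -0.13 to 0.14. Against the same day 1 arrays, withdrawn cells had 6304 rises (21.4%) and 5346 falls (18.2%), 39.6% in all. The probes that rose in continued tamoxifen had a median change of 0.35 there and 0.33 in withdrawn cells, and those that fell had -0.31 and -0.31. Z00020267-1 stood at 0.51 and 0.43 in withdrawn cells, against 0.52 and 0.46 in continued tamoxifen, and Z00015795-1 at 0.43 on both arrays against 0.50 and 0.51. The changes in both schedules subtract the same day 1 arrays and span the same slides, so part of their likeness was fixed in advance. The direct comparison of the day 2 groups does not use the day 1 arrays. By it, day 2 levels were similar in both schedules, within the limits that 2 arrays per group set.

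The second-day change also ran against the change that followed plating. Between day 0 and untreated day 1, 5753 probes rose (19.6% of those tested) and 7121 fell (24.2%), 43.8% in all by limma at adjusted p under 0.05. This comparison uses none of the arrays or slides of the second tamoxifen day. Of the 5753 raised probes, 3396 fell on the second tamoxifen day (59.0%, against 17.7% of all probes tested) and 105 rose (1.83%). Of the 7121 lowered probes, 4474 rose (62.8%, against 22.3%) and 149 fell (2.09%). Across probes the changes correlated at r = -0.750, with the reference and the probe set in common. Of all rises on the second tamoxifen day, 68.3% were of probes lowered after plating, and of all falls 65.1% were of probes raised after plating.

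The levels show a return towards day 0. The raised probes had median levels relative to day 0 of 0.29 and 0.27 on the day 1 tamoxifen arrays and 0.05 and 0.09 on the day 2 tamoxifen arrays. Untreated arrays, of which those of day 1 chose the probes, stood at 0.29 and 0.36 and then at 0.10 and 0.06. The lowered probes had -0.30 and -0.29 in tamoxifen on day 1 and -0.03 and -0.07 on day 2, against -0.33 and -0.36 and then -0.12 and -0.06 without it. Treated and untreated cells thus came back to similar medians. By day 4 in continued tamoxifen the medians had passed day 0, at -0.12 and -0.14 for the raised probes and 0.20 and 0.23 for the lowered ones. Withdrawn cells of day 4 gave -0.15 on both arrays and 0.21 and 0.25. With no untreated arrays on day 4, and another slide and scan session than day 0, time cannot be told apart from these.

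**Figure D5:**
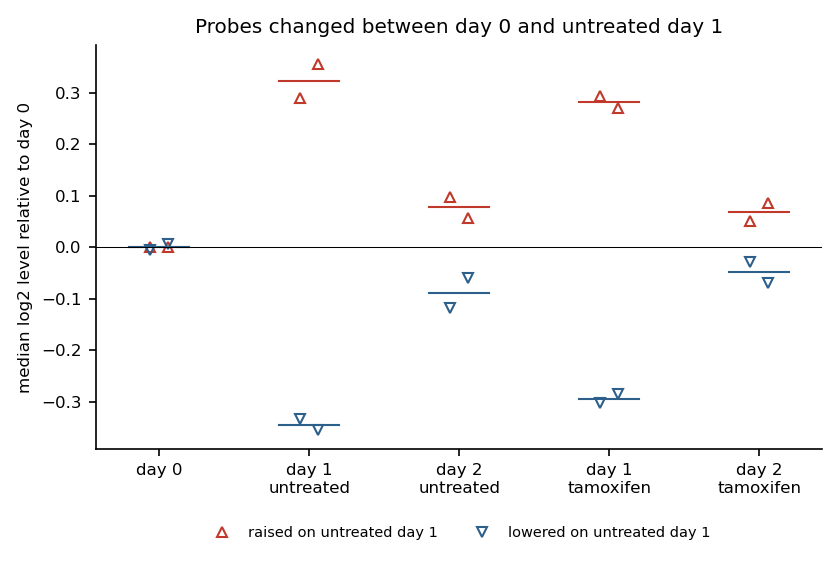
Median level relative to day 0 (log2) on each array of 5 groups, for the 5753 probes raised (upward triangles) and the 7121 lowered (downward triangles) between day 0 and untreated day 1; short lines are means of the 2 arrays. The classes stand apart on day 1 with and without tamoxifen and draw together on day 2, to 0.05 and 0.09 and to -0.03 and -0.07 in tamoxifen.

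Probe sequence was set beside the change. Rises in tamoxifen were more frequent among probes poor in G and C: of 5 classes by GC content, 28.6% of probes rose in the lowest (at most 36.7% GC) and 14.6% in the highest (at least 55%). Falls varied less, from 15.1% to 19.8% across the classes. Untreated rises followed the same order, at 24.3% and 14.4%, so the trend was present without tamoxifen too. The motif AATAAA was searched on the printed strand and found in 2207 tested probes, 7.50% of them, and its reverse complement TTTATT in 901. Among AATAAA probes 30.2% rose in tamoxifen and 16.8% fell, against 21.6% and 17.8% of the others. Without tamoxifen 22.7% of AATAAA probes rose and 22.0% fell, against 19.8% and 16.6% of the others. Of the 2207, 928 were in the lowest GC class, and within each of the 5 GC classes the median change in tamoxifen of AATAAA probes was above that of the others, by 0.02 to 0.07. The median gap between probes with and without AATAAA, relative to day 0, was -0.01 and -0.03 on the treated day 1 arrays and 0.02 on both treated day 2 arrays. The untreated day 1 arrays, at -0.02 and 0.06, did not agree in sign, so the difference from untreated cells (0.066) was 0.012 without the second of them and 0.11 without the first. A match is a string of letters, and the use of the signal was not tested.

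A few probes could be placed by exact match to RefSeq's windows around annotated gene starts (GRCm38.p6). Of 196 tested probes with a match, 31 spanned a start on the gene's own strand, and 4 of them rose and 5 fell in tamoxifen (29.0% called, against 40% of all probes). They are named by position, chosen after their values were seen, and whether each measures that gene's transcript was not tested. Some lay mostly before the annotated start, such as Z00075310-1 below, with 54 bases before it and 6 after. Others lay mostly after it, such as Z00056199-1, with 13 before and 47 after. The largest called rise was that of Z00056199-1 at the start of Leng1 (chr7:3665794-3665853, minus strand), by 0.39 (limma adjusted p = 0.00013). Z00075310-1, at the start of Rpl38, which encodes a protein of the large ribosomal subunit (chr11:114668526-114668585, plus strand), rose by 0.21 (adjusted p = 0.0069). A second probe there, Z00032009-1 and overlapping the first, gave 0.12 and was not called (adjusted p = 0.12). The others that rose lay at the starts of Pgpep1, a peptidase gene, and Ppp2r3c, for a regulatory subunit of protein phosphatase 2A.

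The falls at gene starts were of similar size. Z00064043-1 at the start of Fau, which encodes ribosomal protein S30 fused to a ubiquitin-like protein (chr19:6057909-6057968, plus strand), changed by -0.24 in tamoxifen (limma adjusted p = 0.0026) and by -0.39 without it. Z00064362-1 at the start of Psme2, for a subunit of the PA28 proteasome activator (chr14:55590999-55591058, minus strand), changed by -0.24 in tamoxifen (adjusted p = 0.014) and by 0.04 without. The difference between those changes did not pass the test (adjusted p = 0.19). The remaining falls were at the starts of Rbbp5, for a subunit of histone H3 lysine methyltransferase complexes, 5730408K05Rik and D8Ertd738e. For none of the 31 was the difference between treated and untreated change called by limma. Over all tested probes the share was 2.37%, so with 31 probes a lack of calls is near that share and says nothing particular about them.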

How the data were processed

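Per the file headers, Agilent Feature Extraction 9.5.1.1 wrote the deposited linear intensity values of each spot, with local backgrounds and flags. The authors also deposited a series matrix on a log10 scale, with normalization not stated in the sources used here. It served as an alternative.

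The mean signals were corrected for local background by normexp with an offset of 50, normalized by loess within arrays (control spots at weight 0) and turned to log2 of Cy3 sample over Cy5 reference in limma 3.58.1 under R 4.3.3. The offset understates changes of dim probes. In 1 array, the first of untreated day 1, 12 local backgrounds above 10 times the median of their channel were replaced by that median. Non-uniform outlier spots were set to missing (91 values among tested probes) and spots of a probe were averaged. A probe was tested if, in at least 1 group, both arrays had a sample signal well above background. One group-means model was fitted to all 20 arrays (10 residual degrees of freedom) with lmFit and eBayes, and p-values were adjusted over 29414 probes. The calculation was tested on simulated data. The gene and marker lists drawn up for this work could not be used, since probes carry no gene names.

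Named probes are the 5 largest called rises and falls in tamoxifen and the 3 largest called differences from untreated cells in each direction, with arrays that do not overlap. The probes, lists and comparisons were chosen with earlier results of these data known. Alternatives changed the background, normalization, reference, filter, arrays in the fit and replicate numbers. The number of arrays limits the precision.

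Same-numbered arrays did not deviate together (correlation -0.155 between day 1 and day 2 in tamoxifen), and nothing in the labels pairs them.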

Additional observations from a re-analysis of the deposited data

Results flagged for a closer look

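For 13 of the 15 named probes the second-day change differed between treated and untreated cells by limma's test of that difference. Over all tested probes the share called was 2.37%. For probes named by the change in tamoxifen, apart from Z00074574-1, this test was not repeated with other processing. The difference (treated change minus untreated change, log2) was positive for Z00020267-1 (0.72), Z00029465-1 (0.71), Z00002099-1 (0.60), Z00034825-1 (0.86) and Z00021680-1 (0.61), which rose in both. It was also positive for Z00015795-1 (1.51), Z00033292-1 (1.27) and Z00035949-1 (1.14). It was negative for Z00003765-1 (-0.68), Z00074574-1 (-1.01), Z00002490-1 (-0.99), Z00027744-1 (-1.09) and Z00026394-1 (-1.09). Adjusted p ran from 9.7e-06 for Z00035949-1 to 0.028 for Z00003765-1. Z00015795-1, Z00033292-1, Z00035949-1, Z00027744-1, Z00026394-1 and Z00074574-1 were named for their called difference, so that they pass is no result. The first 5 above, Z00003765-1 and Z00002490-1 were named for a large treated change, which favours a difference in its direction. The treated change spans slides 2 and 3 and the untreated change slides 1 and 2, so slide and these differences cannot be told apart.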

How the results depend on the processing

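Directions held throughout for the value that each named probe was chosen by. Of 243 alternative values, 242 kept direction and call, 1 lost its call (Z00035949-1, above) and 0 reversed. For the largest rises and falls that value was the change in tamoxifen. Their differences from untreated cells, apart from that of Z00074574-1, were not recomputed. Changes of filter, of the arrays in the fit and a replicate block left a probe's estimate as it was, so there only the call could vary. With local backgrounds as deposited, which alters only the first untreated day 1 array, the second-day change in tamoxifen had 7227 calls, shared rises with untreated cells were 2083 and shared falls 1750, probes raised after plating that fell 1812, and probes lowered after plating that rose 2194. Shared rises were 2914 with the series matrix values, which cover fewer probes. With only the arrays compared in the fit, the untreated change had 5638 calls and the difference between the changes 158. That difference had 317 calls with Agilent's processed signals and 420 with median centring, and 333 to 4137 when 1 array was left out. A lone array left in a group was assumed to vary like the others. Other totals recomputed here stayed within 1.5 times. By direction, the series matrix gave 4333 rises in tamoxifen against 6549, and untreated rises were 3799 there and 3807 with backgrounds as deposited, against 5898. Counts for withdrawn cells, for plating alone and at 2-fold were not recomputed. Replicate numbers did not pair the arrays: a replicate block gave 11784 calls for the change in tamoxifen, 10889 for the untreated change and 674 for their difference. On the 4 tamoxifen arrays alone the block gave 12465 calls and, with the numbers crossed, 14024, an alternative chosen after seeing the data, as were those for the shared and plating counts, for AATAAA and for the change in tamoxifen without the first untreated day 1 array. With 2 arrays per group and few calls among dim probes, small changes of weakly expressed transcripts may be missed.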
